A study of Homo sapiens with 6 samples.

Results

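The 9 genes described here form the feedback loop and the cell cycle arrest arm of the p53 pathway: MDM2, MDM4, PPM1D, CDKN1A, CCNG1, BTG2, GADD45A, SESN1 and ZMAT3. They were chosen by symbol, with earlier results of these data known, and all 9 were found among the 19923 protein-coding genes of the count tables. The counts set beside the background below therefore describe these genes and are not independent support for a change. The series holds 6 poly(A) RNA-seq libraries of Kelly cells, a human neuroblastoma cell line, MYCN-amplified and of wild-type genotype by the labels. Lipofectamine RNAiMAX delivered either a control siRNA (siControl, 3 libraries) or one against METTL3 (siMETTL3, 3 libraries), and the cells were collected after 72 hours. METTL3 is the catalytic subunit of the enzyme that writes N6-methyladenosine (m6A) into mRNA. The question was how its depletion changed the transcripts of these genes.

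As background, p53 is a transcription factor that is held low by the E3 ubiquitin ligase MDM2 and held inactive by its partner MDM4. DNA damage and other stresses release it, and it then binds a pair of short decamers near its target genes. MDM2 is itself such a target, which closes a negative feedback loop, and the phosphatase encoded by PPM1D closes another. CDKN1A, CCNG1, BTG2 and GADD45A act on the cell cycle, SESN1 on nutrient and oxidative signalling, and ZMAT3 on RNA. Kelly cells are catalogued as carrying a missense change in the p53 gene, which the labels do not state and which the gene counts do not test.

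The sequences that link these genes are shown first, since they are what p53 is known to bind. The GRCh38 genome was read from 5000 bases before to 5000 bases after each RefSeq transcription start of 8 of the genes (15 starts in all). GADD45A was not among the matched entries. A site was a pair of p53 consensus decamers on either strand (the consensus is its own reverse complement), with 0 to 3 bases between them and the outer C and G of each 4-base core intact. With at most 2 mismatches, a site was found around 5 of the 8 genes. The same was true of 29.2% of the 11813 tested genes with a RefSeq start, and of 26.3% of their 17323 windows. The site with the fewest mismatches, and then the shortest gap, is given for each of the 5 genes in the direction of the gene, with the 4-base cores in capitals.
ZMAT3: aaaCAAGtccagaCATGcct
CCNG1: gcaCAAGcccaggCTAGtcc
CDKN1A: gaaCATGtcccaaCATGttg
MDM2: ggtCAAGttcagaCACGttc
BTG2: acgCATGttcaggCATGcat
The ZMAT3 site matched the consensus with 0 mismatches, which 0.35% of all windows did. It lay at chr3:179070188-179070207, in an intron of the canonical GENCODE release 44 transcript. The CCNG1 site had 1 mismatch and lay in an intron at chr5:163437926-163437945. The sites of CDKN1A, MDM2 and BTG2 had 2 mismatches each. The CDKN1A site lay upstream of the canonical transcript, at position -2265 from the RefSeq start (chr6:36676449-36676468). The CDKN1A span as counted begins inside that site, at 36676460. The MDM2 site lay in an intron at chr12:68808923-68808942. The BTG2 site lay at position -1877 (chr1:203303642-203303661). MDM4, PPM1D and SESN1 had a pair of decamers with 3 mismatches at best. A pair with 3 or fewer mismatches was found around 84.3% of the tested genes and in 81.9% of their windows. A match describes the letters and is not evidence of binding.

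The surroundings of the MDM2 and ZMAT3 sites are shown because both sites lie inside their genes, ahead of a downstream RefSeq start. The 20 bases of the site are in capitals and the strand is that of the gene, plus for MDM2 (chr12:68808867-68809001) and minus for ZMAT3 (chr3:179070128-179070267).
MDM2: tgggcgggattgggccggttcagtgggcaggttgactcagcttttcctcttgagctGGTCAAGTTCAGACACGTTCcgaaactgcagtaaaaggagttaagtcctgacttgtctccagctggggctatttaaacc
ZMAT3: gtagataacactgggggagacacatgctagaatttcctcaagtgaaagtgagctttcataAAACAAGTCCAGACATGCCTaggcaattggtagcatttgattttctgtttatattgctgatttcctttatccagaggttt

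The libraries held between 15430000 and 21565013 counts, and siControl replicate 3 was the shallowest. METTL3 itself was at 53.5, 52.8 and 56.2 CPM (counts per 1000000) in siControl, and its siMETTL3 libraries (679, 692 and 705 counts) lay between 31.8 and 34.3 CPM. Every siMETTL3 library was lower, and METTL3 remained at 61.0% of the control level (log2 fold change -0.71 with a standard error, SE, of 0.070; edgeR FDR 4.68e-06). It shares 7.90% of its span with TOX4, which changed by -0.20 (edgeR FDR 0.0431). All 13 noradrenergic neuroblastoma markers were expressed in every library, at no less than 41.5 CPM, the lowest value of ISL1. MYCN, one of them, rose from 3021 ± 134 to 4638 ± 169 CPM (edgeR FDR 5.17e-06). The 9 mesenchymal markers summed to 226 to 227 CPM in siControl and 199 to 210 CPM in siMETTL3. TWIST1 (98.3 to 130 CPM) and PDGFRB (78.4 to 92.7 CPM) made up most of that sum, while COL1A2, DCN and LUM stayed at or under 0.390 CPM. All 5 blood cell markers summed to at most 0.695 CPM, and the 5 epithelial markers to 7.30 to 7.88 CPM in siControl and 8.13 to 10.4 CPM in siMETTL3, with KRT5 at 0 in every library. The noradrenergic sum, to which MYCN gave the most, was 7309 to 7964 CPM in siControl and 10552 to 11135 CPM in siMETTL3. Of its 13 markers 8 were called higher and 2 lower, and the part of these marker differences in the results was not tested.

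Of the 9 genes, 7 fell with siMETTL3, 0 rose and 2 did not pass the test (edgeR quasi-likelihood test over 15311 genes, FDR under 0.05). Of all tested genes 37.8% passed, made up of 19.2% that were lower and 18.6% that were higher. CDKN1A and ZMAT3 fell furthest, to about 49.4% and 50.7% of their control levels, and CCNG1 fell to 63.5%. These 3 were the genes lower by at least 1.5-fold, which 2.81% of all tested genes were. For CCNG1 this did not hold in every alternative fit, where its log2 fold change went from -0.71 to -0.56. The median log2 fold change of the 9 genes was -0.33, and that of all tested genes was -0.0021. In 8 of the 9 genes every siMETTL3 library lay below every siControl library. Among all tested genes, 49.9% had groups that did not overlap, and in 25.1% siMETTL3 was the lower group. Relative to the control means, the median log2 value of the 9 genes was -0.34, -0.36 and -0.32 in the siMETTL3 libraries and -0.0021, 0.03 and -0.03 in the siControl libraries. The shift was thus of like size in each siMETTL3 library. All CPM values are relative to the library size scaled with edgeR's TMM factors, and groups are given as mean ± SD. A lower value in bulk RNA does not tell fewer expressing cells from less RNA per cell.

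**Figure D1:**
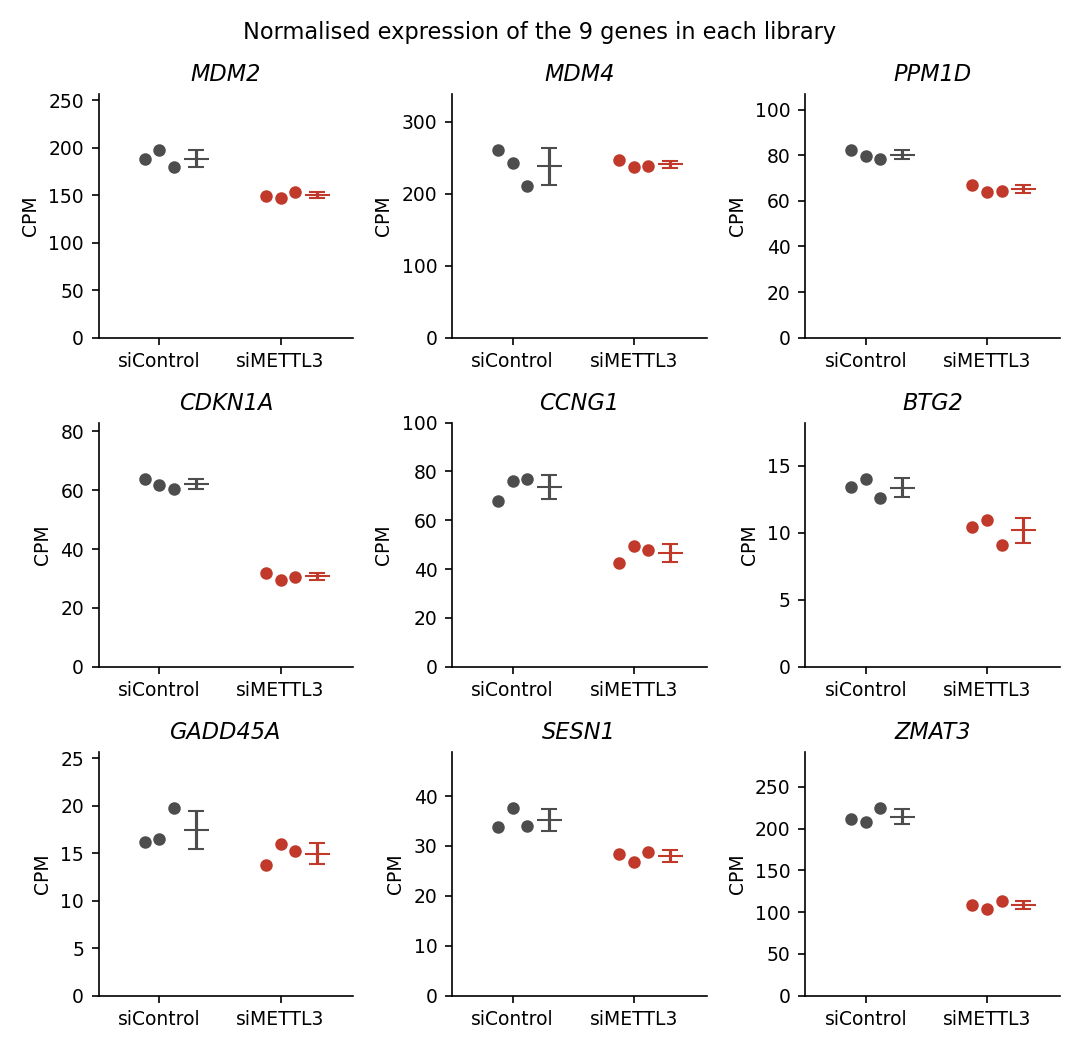
Normalised expression (CPM, vertical axes starting at 0) of the 9 genes in each of the 3 siControl libraries (grey) and 3 siMETTL3 libraries (red); dots are libraries, and bars are mean and SD. The groups separate in 8 genes and overlap in MDM4, with the widest gaps in CDKN1A and ZMAT3.

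MDM2, the ligase that marks p53 for degradation, lies on chromosome 12 (68808177 to 68850686, plus strand). Its siControl libraries were at 188, 198 and 180 CPM, and its siMETTL3 libraries at 149, 147 and 153 CPM. All 3 siMETTL3 libraries lay below the lowest control library. The group values were 189 ± 8.98 and 150 ± 3.06 CPM (n = 3 each), giving a log2 fold change of -0.33 (SE 0.056, edgeR FDR 0.000463). The last 20.0% of the MDM2 span (8490 bases) overlaps CPM, the gene of carboxypeptidase M, and reads there counted for both genes. That gene fell as well (log2 -0.43, edgeR FDR 0.000620), with 41.5 ± 1.51 CPM in siControl and 30.8 ± 1.84 CPM in siMETTL3. How many of the MDM2 reads came from the overlap was not measured.

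MDM4, the partner of MDM2 that masks the activation domain of p53, lies on chromosome 1 (204516379 to 204558120, plus strand) and overlaps no other gene of the table. Its siControl libraries were at 261, 243 and 211 CPM and its siMETTL3 libraries at 247, 237 and 239 CPM. The siMETTL3 values sat inside the range of the controls, whose spread (239 ± 25.5 CPM) was wider than that of siMETTL3 (241 ± 5.33 CPM). The log2 fold change was 0.01, with a 95% interval from -0.14 to 0.17 (edgeR FDR 0.898). Its sign turned in 4 of the alternative fits, among them without siControl replicate 3 (-0.07).

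The paralogs could also be compared within each library, where no scaling enters. The ratio of MDM2 to MDM4 counts was 0.720, 0.813 and 0.852 with the control siRNA, and 0.605, 0.620 and 0.642 after siMETTL3. Every siMETTL3 library was below every control library. On the log2 scale the ratio was -0.33 ± 0.13 in siControl and -0.69 ± 0.043 in siMETTL3, a difference of -0.35. The exact two-sided permutation test gave p = 0.1, which is the smallest value that 3 against 3 libraries allow, so that this test cannot pass 0.05.

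**Figure D2:**
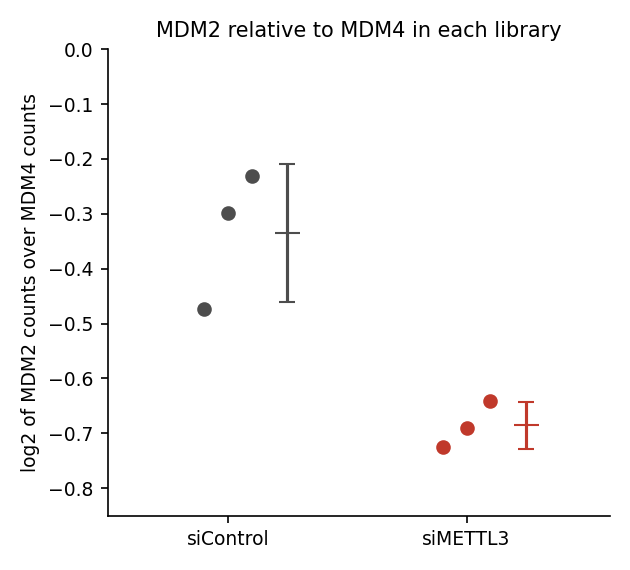
The log2 ratio of MDM2 to MDM4 counts (vertical axis) in each siControl (grey) and siMETTL3 (red) library; dots are libraries, bars are mean and SD. The siControl libraries sit at -0.47, -0.30 and -0.23 and the siMETTL3 libraries between -0.73 and -0.64.

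PPM1D, which encodes the phosphatase WIP1 that removes activating phosphates from p53 and its kinases, lies on chromosome 17 (60600183 to 60666280, plus strand). It was measured at 82.3, 79.8 and 78.3 CPM in siControl and at 67.0, 63.8 and 64.2 CPM in siMETTL3. The spread within groups was small (80.1 ± 2.04 and 65.0 ± 1.73 CPM), and the groups did not overlap. The log2 fold change was -0.30 (SE 0.059, edgeR FDR 0.00119), close in size to that of MDM2. Of the 3 regulators of p53 among the genes, both enzymes thus fell by under 1.5-fold and MDM4 did not pass the test.

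CDKN1A encodes p21, the inhibitor of cyclin-dependent kinases through which p53 is best known to stop the cell cycle (chromosome 6, 36676460 to 36687339, plus strand). Its siControl libraries were at 63.9, 61.8 and 60.6 CPM and its siMETTL3 libraries at 32.0, 29.6 and 30.5 CPM. The gap between the groups was far wider than the spread within either. The log2 fold change was -1.02 (SE 0.068, edgeR FDR 1.66e-07), and 0.666% of all tested genes had a log2 fold change as low or lower. Across the alternative fits it went from -1.05 to -0.94.

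ZMAT3, a zinc finger RNA-binding protein that is a long-known p53 target, lies on chromosome 3 (178960121 to 179072215, minus strand). It was measured at 211, 208 and 225 CPM in siControl and at 109, 103 and 113 CPM in siMETTL3. The highest siMETTL3 library was thus well under the lowest control library. The log2 fold change was -0.98 (SE 0.059, edgeR FDR 5.75e-08), and it had the lowest p-value among the 9 genes. Its canonical mRNA covers 7.97% of the counted span, so reads of its introns could enter the count. The share was smaller still for PPM1D (7.21%) and SESN1 (5.23%).

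CCNG1, which encodes cyclin G1, a p53 target that binds the phosphatase acting on MDM2, lies on chromosome 5 (163437569 to 163446151, plus strand). Its values were 67.9, 76.2 and 77.0 CPM in siControl and 42.6, 49.7 and 47.9 CPM in siMETTL3. The first library of each group was the lowest of its group. The group values were 73.7 ± 5.02 and 46.7 ± 3.66 CPM, giving a log2 fold change of -0.66 (SE 0.076, edgeR FDR 1.96e-05).

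BTG2, an antiproliferative cofactor of mRNA deadenylation, lies on chromosome 1 (203305491 to 203309602, plus strand) and was among the lowest of the 9 genes. It was measured at 13.4, 14.0 and 12.6 CPM in siControl and at 10.4, 10.9 and 9.11 CPM in siMETTL3, from 187 to 289 counts a library. The groups did not overlap, with a log2 fold change of -0.39 (SE 0.12, edgeR FDR 0.0160). The call was lost without siControl replicate 2 (edgeR FDR 0.0684), without siMETTL3 replicate 3 (edgeR FDR 0.0779), and with an offset for the length of the gene span (log2 fold change -0.25, edgeR FDR 0.104). Its FDR ranged between 0.00735 and 0.104 across the alternatives.

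GADD45A, a stress protein of the G2/M checkpoint, lies on chromosome 1 (67685201 to 67688334, plus strand). Its siControl libraries were at 16.2, 16.5 and 19.8 CPM and its siMETTL3 libraries at 13.8, 15.9 and 15.2 CPM. The lowest control library exceeded the highest siMETTL3 library by little, and the third control library stood above the other two. The log2 fold change was -0.22 with a 95% interval from -0.46 to 0.02 (edgeR FDR 0.142), so it did not pass the test. It was -0.05 with the offset for gene span length, -0.13 without siControl replicate 3, and -0.16 without siMETTL3 replicate 1.

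SESN1, a sestrin that restrains mTORC1 signalling, lies on chromosome 6 (108986437 to 109094819, minus strand). It was measured at 33.8, 37.6 and 34.0 CPM in siControl and at 28.4, 26.7 and 28.8 CPM in siMETTL3. All siMETTL3 libraries were below all controls. The group values were 35.2 ± 2.15 and 28.0 ± 1.13 CPM, giving a log2 fold change of -0.33 (SE 0.080, edgeR FDR 0.00522).

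**Figure D3:**
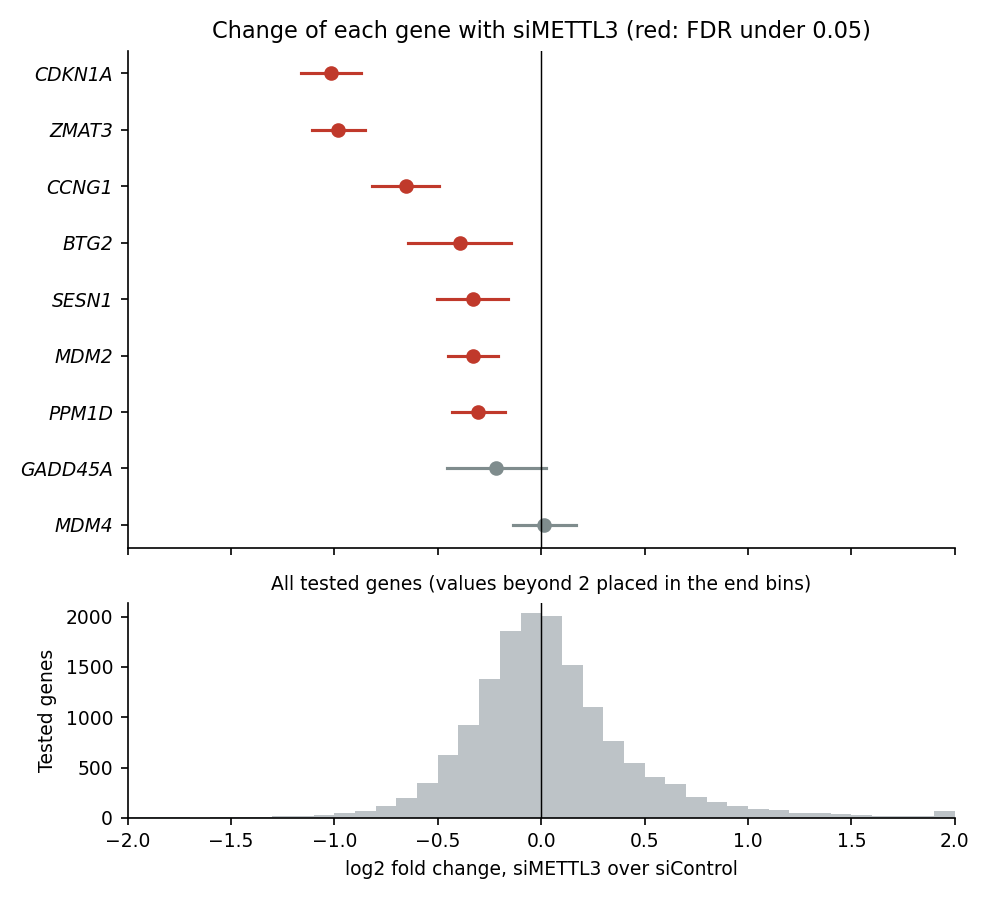
Upper panel: log2 fold change of siMETTL3 over siControl for each of the 9 genes (points) with its 95% interval (lines), red where the edgeR FDR is under 0.05. Lower panel: the number of all 15311 tested genes at each log2 fold change; CDKN1A (-1.02) and ZMAT3 (-0.98) lie in the left tail and MDM4 (0.01) at the centre.

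The genes differed in abundance as well as in change. Levels per kilobase of canonical mRNA were compared, since counts grow with length, although intron reads enter them. In siControl the order was CCNG1 (30.2 ± 2.05 CPM per kilobase), CDKN1A (29.3 ± 0.786), MDM2 (25.2 ± 1.20), ZMAT3 (24.0 ± 1.02), MDM4 (23.7 ± 2.53), PPM1D (16.8 ± 0.427), GADD45A (12.9 ± 1.48), SESN1 (6.21 ± 0.379) and BTG2 (4.89 ± 0.258). CCNG1 and CDKN1A did not differ beyond their spread, nor did MDM2, ZMAT3 and MDM4. In siMETTL3 MDM4 stood at the top of the order, at 24.0 ± 0.530 CPM per kilobase. CDKN1A stood there at 14.5 ± 0.582 and ZMAT3 at 12.2 ± 0.555. The order depended on the length used. Per kilobase of the counted span, the siControl order was CCNG1 (8.59), MDM4 (5.71), CDKN1A (5.71), GADD45A (5.58) and MDM2 (4.44). BTG2 (3.24), ZMAT3 (1.91), PPM1D (1.21) and SESN1 (0.324) followed. In siMETTL3 MDM4 was again at the top, at 5.77 CPM per kilobase of span.

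The other genes of the pathway were read from 6 lists, with 19.2% lower and 18.6% higher among all tested genes as the background. These lists too were chosen with earlier results of these data known. Of 30 tested p53 target genes outside cell death, 14 fell, 1 rose and 15 did not pass, with a median log2 fold change of -0.27. PLK2, a polo-like kinase, stood at 31.8 ± 4.89 CPM in siControl and 11.1 ± 0.277 CPM in siMETTL3 (-1.51 on the log2 scale, edgeR FDR 4.78e-07). PHLDA3, an inhibitor of AKT at the membrane, went from 37.6 ± 3.83 CPM down to 13.5 ± 1.07 CPM (-1.47 on the log2 scale, edgeR FDR 2.06e-07). TP53INP1, a stress protein whose span overlaps NDUFAF6, changed by -1.27 on the log2 scale (edgeR FDR 3.27e-08). The fitted decreases of these 3 were larger than any among the 9 genes, a difference that was not tested. The gene that rose was SUSD6 (0.35, edgeR FDR 0.0114), which is named because it was the only one.

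Upstream of p53, 7 of 11 kinases and damage signalling genes fell and 0 rose, with small changes and a median of -0.19. PRKDC, the catalytic subunit of DNA-dependent protein kinase, changed by -0.27 on the log2 scale (edgeR FDR 0.00125). The checkpoint kinase gene ATR stood at -0.24 (edgeR FDR 0.00413). RAD50, a subunit of the break-sensing complex whose span overlaps IL5 and AC116366.3, stood at -0.21 (edgeR FDR 0.00981); its call was lost when siMETTL3 replicate 2 was left out (edgeR FDR 0.0533; lowest among the alternatives 0.000926). The count for this list was 3 without siMETTL3 replicate 1 and 3 without siMETTL3 replicate 2.

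Among 24 regulators of p53 stability and activity, 5 fell, 6 rose and 13 did not pass, with a median of -0.02. The ribosomal proteins RPL5 and RPL11, which bind and inhibit MDM2 under ribosomal stress, had log2 fold changes of -0.68 (edgeR FDR 9.50e-06) and -0.50 (edgeR FDR 5.57e-05). Both have processed pseudogenes, with which reads can be shared, and RPL5 overlaps DIPK1A. EP300, an acetyltransferase and coactivator of p53, rose (log2 fold change 0.37, edgeR FDR 0.000240). The others that rose were USP2 (0.67), PPP1R13B (0.48), USP7 (0.33), USP10 (0.26) and CREBBP (0.22). The others that fell were RPL23 (-0.52), TP53BP2 (-0.25) and KAT5 (-0.25). These and the further genes named to complete a count in the lists were chosen after their values were seen.

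The paralogs of the 9 genes moved in both directions. Of 21 tested, 8 fell, 5 rose and 8 did not pass, with a median of -0.03. Both other sestrins had larger decreases than SESN1. SESN3 had a mean of 189 CPM in siControl and 89.8 CPM in siMETTL3 (-1.08, SE 0.075, edgeR FDR 2.78e-07). For SESN2 the means were 52.4 and 31.4 CPM (-0.74, SE 0.081, edgeR FDR 1.17e-05). The difference between the sestrins was not tested. ZMAT4, a relative of ZMAT3, rose from 134 ± 7.71 CPM to a mean of 338 ± 1.61 CPM (1.34 on the log2 scale, edgeR FDR 3.16e-09). The other 4 that rose were CDKN1C, TP73, ZMAT2 (0.34) and TOB2 (0.25).

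Downstream of p21, 7 of 17 tested G1 cyclins, kinases and their partners fell, 2 rose and 8 did not pass (median -0.16). CDK4, a kinase of the G1 phase that overlaps TSPAN31 and MARCHF9, had a log2 fold change of -0.61 (edgeR FDR 2.56e-06). PCNA, the replication clamp that p21 binds and itself also a known p53 target, stood at -0.64 (edgeR FDR 6.16e-06). CCND1, which encodes cyclin D1 and overlaps LTO1, rose (log2 fold change 0.51, edgeR FDR 1.16e-05), as did E2F3 (0.30, edgeR FDR 0.00206).

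The last list held 30 cell cycle genes that p21 is known to lower through the DREAM repressor complex. Of these genes, 16 fell, 5 rose and 9 did not pass (median -0.19), and a link to the lower CDKN1A was not tested. The members with the smallest FDR among those that fell were MCM4 (log2 fold change -0.55, edgeR FDR 8.08e-06), MCM7 (-0.50, edgeR FDR 1.47e-05), which overlaps AP4M1, and MCM3 (-0.45, edgeR FDR 1.77e-05), subunits of the replication helicase. The mitotic genes of the list were split. Among those that fell were KIF20A (-0.38), BUB1B (-0.31), BUB1 (-0.26) and CENPF (-0.17, edgeR FDR 0.0491, close to the threshold). Among those that did not pass were PLK1 (0.10), CCNB1 (0.07), CCNB2 (0.05), AURKB (0.03), KIF23 (-0.02) and CDC20 (0.01). These mitotic genes were named after their values were seen. The 5 genes of the list that rose were MKI67 (0.35), FOXM1 (0.28), MYBL2 (0.24), AURKA (0.18) and BIRC5 (0.16). The count of 21 called genes in this list was 20 with DESeq2 and 21 with limma-voom. It was 13 without siControl replicate 2 and 13 without siMETTL3 replicate 1.

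**Figure D4:**
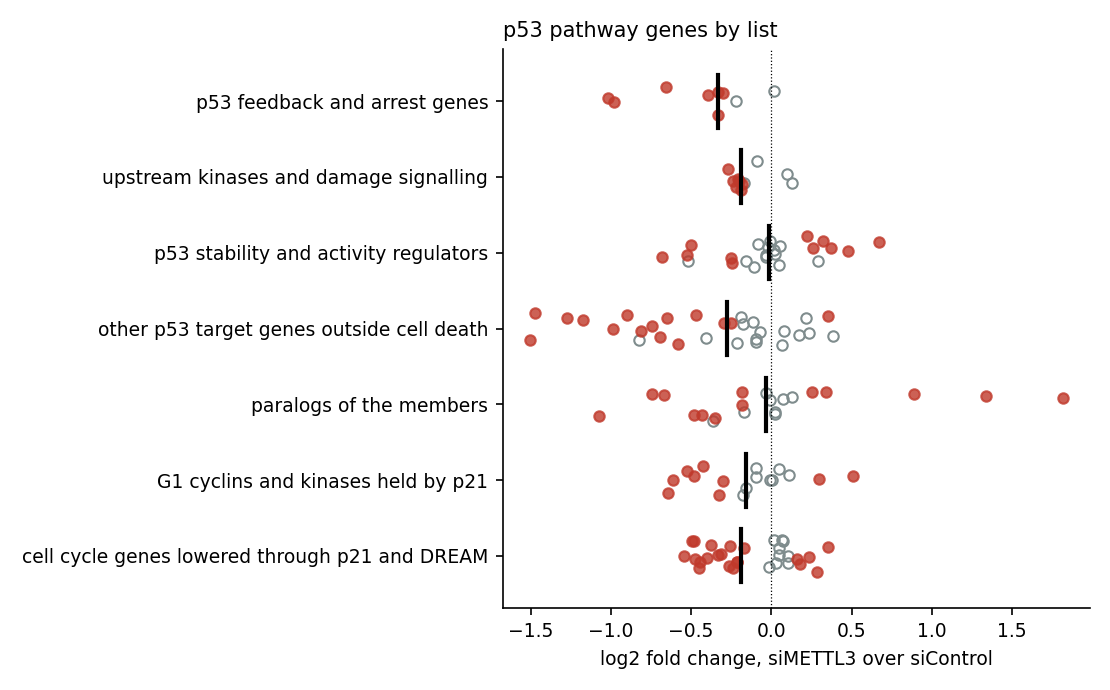
log2 fold change (horizontal axis) of each tested gene in the 9 p53 feedback and arrest genes (the members) and in the 6 pathway lists; red dots passed the edgeR FDR of 0.05, open dots did not, and black bars are medians. The medians run from -0.33 for the 9 genes to -0.02 for the regulators of p53 stability and activity.

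Among 11755 other genes whose log2 CPM averaged 3 or more, those with a course most like CDKN1A over the 6 libraries were NOTCH3, CDH24 and PHGDH. Their Euclidean distances to its centred log2 CPM were 0.11, 0.16 and 0.18, where the median gene lay at 1.24. Those nearest to MDM2 were IRGQ, PPA1 and FBXO22, at distances of 0.051, 0.057 and 0.059 (median 0.47). IRGQ overlaps L34079.1 and FBXO22 overlaps NRG4.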

How the data were processed

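Reads were trimmed and aligned with tools listed in the submitters' processing notes (Trimmomatic 0.36, HISAT2 2.1.0, GRCh38). The deposited values are raw counts of reads per gene, which the authors made with featureCounts (v1.5.3) on GENCODE release 33 genes, per the file headers. The whole gene span was counted, introns included; a read over several genes counted for each, and no strand option was set. Coordinates are those of the tables.

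Genes were filtered with filterByExpr, scaled by TMM and tested with edgeR 4.0.16 (R 4.3.3; robust glmQLFit and glmQLFTest, 6 libraries, no covariate). FDR is the Benjamini-Hochberg value over 15311 genes; SE is the absolute log2 fold change over the square root of F. No sources say that replicates came from separate cultures, so p-values measure the spread between libraries only. Their counts differed beyond sampling noise, more so in siControl. The chi-square per degree of freedom was 5.57 to 16.1 between siControl libraries and 3.05 to 3.75 between siMETTL3 libraries. The 9 genes and the lists were chosen with earlier results of these data known. The named genes were the 9, METTL3, genes overlapping a named one, up to 3 called genes of smallest FDR per list, and the 3 nearest to CDKN1A and to MDM2 by Euclidean distance of centred log2 CPM (prior count 2). Of the listed symbols, GPX1 was not analysed here, and TRIM22, PADI4, GADD45B, ZMAT1 and CCND2 were left out by the filter. Alternatives were other scalings and filters, DESeq2 1.42.0, limma-voom (limma 3.58.1), no robust option, a replicate block, each library left out, genes without overlaps and a gene length offset. Promoter starts are RefSeq (GRCh38.p14); transcripts are GENCODE release 44.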

Additional observations from a re-analysis of the deposited data

How the results depend on the processing

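The 9 genes were recomputed under each alternative, except MDM2 on the genes without overlaps, since it overlaps another gene. Of 152 values, 145 kept their direction and their side of the threshold and 3 lost the call, all for BTG2. The sign of MDM4 turned in 4: -0.0029 on genes without overlaps, -0.0095 with the gene span length offset, -0.067 without siControl replicate 3 and -0.0037 without siMETTL3 replicate 1; with 1 library left out it ranged from -0.067 to 0.085. It was not past the threshold in any, and the cause was not tested. The number of the 9 genes called lower stayed at 6 or 7, and none was called higher by edgeR, DESeq2 or limma-voom. On the genes without overlaps, 3749 of all genes were called, 3 in the list of upstream kinases (4 tested) and 7 in that of p53 stability regulators (17 tested), since fewer genes were tested. With each library left out singly, the upstream kinase list held 3 to 9 called genes and the list of genes lowered through p21 and DREAM 13 to 21. The median log2 fold change of the 9 genes went from -0.36 to -0.31, and the MDM2 to MDM4 difference from -0.42 to -0.30. On the genes without overlaps, where MDM2 was left out, the median of the remaining 8 was -0.38. Any pairing of the libraries by replicate number was weak in the data. Deviations of same-numbered libraries correlated at 0.040, 0.049 and 0.067, and those of differently numbered libraries at -0.064 to 0.026. Whether same-numbered libraries belong together was not settled by these values. With the replicate block, 7 of the 9 genes were called lower, with a median of -0.33, and 6166 genes in all. BTG2 and GADD45A had the fewest counts of the 9 genes, and the effect of depth on their calls was not tested.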

Other observations

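The motif GGACT, a core of the sequence that the METTL3 complex methylates, was counted in the canonical mRNA of each gene (GENCODE release 44). The 9 genes had a median of 0.935 motifs per kilobase, and the 14591 tested genes with such an mRNA had 0.929. SESN1 held the most, at 1.41 per kilobase, followed by CCNG1 at 1.23 and BTG2 at 1.10. CDKN1A and MDM2 stood at 0.945 and 0.935, MDM4 at 0.498, PPM1D at 0.419 and ZMAT3 at 0.224. GADD45A held 0. CDKN1A and ZMAT3 each held 2 motifs, in mRNAs of 2117 and 8936 bases. A motif is not a measured m6A site.

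A pair of relatives that were singled out after their values had been seen rose from low levels. CDKN1C, which encodes the p21 relative p57, had a mean of 1.15 ± 0.159 CPM in siControl and 4.02 ± 1.31 CPM in siMETTL3 (n = 3 each; 1.82 on the log2 scale, edgeR FDR 0.000312). TP73, a gene of the p53 family, stood at 4.96 ± 1.16 CPM in siControl and 9.30 ± 0.294 CPM in siMETTL3 (0.89 on the log2 scale, edgeR FDR 0.000851). The other relative of p21, CDKN1B, which encodes p27, changed by -0.18 on that scale (edgeR FDR 0.0257).

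All 6 MCM genes of the replication helicase were in the list of genes that p21 lowers through DREAM, and 6 of 6 fell, by between -0.55 (MCM4) and -0.21 (MCM6) on the log2 scale. Among all tested genes 19.2% were called lower. The MCM genes were counted together after their values had been seen.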
